A study of Saccharomyces cerevisiae with 22 samples.

Results

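The newly made RNA of 7 genes of budding yeast that serve the front end of the tricarboxylic acid (TCA) cycle is described here: CIT2, DLD3, CIT1, ACO1, IDH1, IDH2 and PYC1. They are 7 of the 6357 features tested on the arrays, found by gene symbol, and each was read by 1 probe spotted 2 times. The list was drawn up around CIT2 and other genes of the retrograde pathway. CIT2 itself was chosen from its measured values, but which of them were used was not stated. Its strain difference at 0 min and its change from 0 to 90 min in both strains were taken to be those behind the choice. Whether values at other times also counted is not known. The other genes were added as Rtg-dependent genes with earlier results in view. Those contrasts are therefore given as descriptions with no test. So is every other value of a member that is computed from a 0 min level or compares the strains at 90 min.

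The retrograde pathway carries a signal from mitochondria to the nucleus. Mks1 keeps the paired transcription factors Rtg1 and Rtg3 out of the nucleus, Rtg2 binds and inactivates Mks1, and CIT2 and DLD3 are standard reporter genes of the pathway. CIT1, ACO1, IDH1 and IDH2 encode the steps from oxaloacetate to alpha-ketoglutarate, the carbon skeleton of glutamate, and their transcription is known to pass to Rtg control when respiration is low. Rapamycin is known to switch the pathway on through Tor kinase in ordinary yeast.

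The strains were made for anchor-away, in which rapamycin ties an FRB-tagged nuclear protein to a ribosomal protein that takes it out of the nucleus. WT-aa is BY4742 carrying tor1-1, a deletion of FPR1, and RPL13A fused to FKBP12 with a NAT marker. Its further markers are MET15, his3-1, leu2, lys2 and ura3, and its mating type is alpha. Hsf1-aa shares all of this and carries in addition Hsf1, the heat-shock transcription factor, fused to FRB and yEGFP. Both strains therefore lack FPR1 and carry the tor1-1 allele, which are meant to blunt the usual answer to rapamycin. Cells in synthetic complete medium were given 4-thiouracil (4tU), a uracil analog built into new transcripts, for the last minutes of culture, and the RNA that held it was isolated.

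In the slow course rapamycin was at 0.15 µM, and each strain was read after 0, 15, 30, 60 and 90 min, giving 10 groups of 2 arrays (a and b). Its reference was pooled 4tU RNA of WT-aa cells without the drug. The standard depletion had 1 array a strain, at 30 min of 7.5 µM rapamycin, against a pool of RNA that had not been 4tU-labelled. Levels below are log2 of sample over reference, so 0 in the slow course is the level in untreated WT-aa. Differences between levels are log2 differences with the standard error of the fit (n = 2 arrays a group). No course without rapamycin was given, so for a change over time in WT-aa the drug and the time in culture cannot be told apart. Labelled RNA from more transcription and from slower decay within the labelling time cannot be told apart either, nor can a change in all cells and a change in some.

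The 20 slow arrays had 6286 to 6355 features above background, with median sample signals of 863.5 to 1789 units over backgrounds of 42 to 52 units. The 7 genes lay above background on 22 of 22 arrays, at 952.0 to 18629 units, and their 2 spots differed by a median of 0.02 to 0.04 on the log2 scale. Over all features, arrays a and b of the same group had correlations of -0.21 to 0.74 (median 0.24). The HSF1 probe read lower in Hsf1-aa at 0 min, by a log2 difference of -2.17 ± 0.23 (limma adjusted p = 9.81e-04), which is the signal of the tagged gene and not of the protein. HSP82, an Hsf1 target, differed by -0.03 ± 0.15 at 0 min and by -2.98 ± 0.15 at 90 min. The alpha-cell markers MF(ALPHA)1, MF(ALPHA)2 and STE3 gave signals of 924, 441 and 234 times background. The a-cell markers MFA1, MFA2 and STE2 gave 2.31, 2.00 and 6.12 times background, all 6 being above background on 20 of 20 arrays. The probes' cross-hybridisation to paralogs (CIT1, CIT2 and CIT3, PYC1 and PYC2, or GDH1 and GDH3) was not tested.

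CIT2 encodes the peroxisomal citrate synthase, which makes citrate outside the mitochondrion. In WT-aa its log2 levels were -0.06 and 0.12 at 0 min, 0.71 and 0.86 at 15 min, 1.16 and 1.25 at 30 min, 1.22 and 1.28 at 60 min, and 1.08 and 1.19 at 90 min (arrays a and b). Both arrays of every later time lay above both 0 min arrays. The mean was higher than at 0 min by a log2 change of 0.76 ± 0.08 at 15 min, 1.18 ± 0.08 at 30 min (2.26-fold), 1.22 ± 0.08 at 60 min and 1.11 ± 0.08 at 90 min. Among the changes of all 6357 features in WT-aa, CIT2 ranked 3, 1, 2 and 5 from the top at those times. In Hsf1-aa its log2 levels were 0.51 and 0.47 at 0 min, 0.96 and 1.19 at 15 min, 1.18 and 1.50 at 30 min, 1.23 and 1.47 at 60 min, and 1.05 and 1.26 at 90 min. At 90 min the arrays of this strain lay on either side of both WT-aa arrays. The 0 and 90 min levels enter the values taken to be behind the choice of CIT2, so no narrowing is read from them. From the 0 min level of Hsf1-aa the log2 change was 0.58, 0.85, 0.86 and 0.66 at 15, 30, 60 and 90 min, each ± 0.08, with ranks of 14, 2, 35 and 80.

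DLD3 encodes a cytosolic enzyme that oxidises D-lactate and D-2-hydroxyglutarate. In WT-aa its log2 levels were 0.08 and -0.16 at 0 min, 0.46 and 0.34 at 15 min, 0.73 and 0.60 at 30 min, 0.69 and 0.64 at 60 min, and 0.78 and 0.49 at 90 min. The later arrays again all lay above those at 0 min, with changes of 0.44, 0.71, 0.70 and 0.68, each ± 0.12. In Hsf1-aa its log2 levels were 0.45 and 0.20 at 0 min, 0.95 and 0.30 at 15 min, 0.96 and 0.78 at 30 min, 0.91 and 0.54 at 60 min, and 0.63 and 0.58 at 90 min. Array b at 15 min lay below array a at 0 min, so only from 30 min on did the later arrays of this strain stand clear of its 0 min arrays. The log2 changes in Hsf1-aa were 0.30, 0.55, 0.40 and 0.28, each ± 0.12.

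CIT1 encodes the mitochondrial citrate synthase. In WT-aa its log2 levels were -0.01 and 0.03 at 0 min, 0.51 and 0.74 at 15 min, 0.61 and 0.66 at 30 min, 0.43 and 0.62 at 60 min, and 0.54 and 0.60 at 90 min. The level was near its highest by 15 min, with a log2 change from 0 min of 0.61 ± 0.07 there, 0.63 ± 0.07 at 30 min and 0.56 ± 0.07 at 90 min. In Hsf1-aa its log2 levels were 0.29 and 0.25 at 0 min, 0.89 and 0.85 at 15 min, 0.65 and 0.80 at 30 min, 0.45 and 0.66 at 60 min, and 0.53 and 0.66 at 90 min. The highest mean in this strain was at 15 min, 0.60 ± 0.07 above 0 min on the log2 scale, and the change from 0 min was 0.33 ± 0.07 at 90 min.

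ACO1 encodes aconitase, the iron-sulfur enzyme that turns citrate into isocitrate. In WT-aa its log2 levels were -0.04 and 0.04 at 0 min, 0.40 and 0.53 at 15 min, 0.51 and 0.60 at 30 min, 0.31 and 0.40 at 60 min, and 0.16 and 0.20 at 90 min. In Hsf1-aa they were 0.02 and 0.14 at 0 min, 0.56 and 0.63 at 15 min, 0.42 and 0.59 at 30 min, 0.17 and 0.34 at 60 min, and 0.00 and 0.02 at 90 min. ACO1 was thus high early and lower late in both strains. Its log2 change from 0 min in WT-aa was 0.55 ± 0.05 at 30 min and 0.17 ± 0.05 at 90 min, and in Hsf1-aa it was 0.52 ± 0.05 at 15 min and -0.07 ± 0.05 at 90 min. The 90 min change in WT-aa was -0.035 when the arrays were centred on the external control RNA, under which the median of all features was -0.11.

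IDH1 and IDH2 encode the subunits of the mitochondrial NAD-dependent isocitrate dehydrogenase, which makes alpha-ketoglutarate. IDH1 in WT-aa had log2 levels of 0.02 and 0.13 at 0 min and 0.24 and 0.54 at 15 min, and of 0.09 and 0.04 at 90 min. In Hsf1-aa IDH1 had log2 levels of -0.02 and 0.34 at 0 min and 0.28 and 0.31 at 15 min, so that the 0 min arrays spanned those at 15 min. IDH2 moved less: its 20 slow arrays lay between -0.11 and 0.41 on the log2 scale. Its highest group mean was at 15 min in both strains, at 0.19 in WT-aa and 0.32 in Hsf1-aa. The log2 group means of IDH1 and IDH2 correlated at r = 0.40 over the 10 groups, and whether their courses differ was not tested.

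PYC1 encodes a cytosolic pyruvate carboxylase, a biotin enzyme that supplies oxaloacetate. In WT-aa its log2 levels were 0.07 and -0.11 at 0 min, 0.24 and 0.05 at 15 min, 0.20 and 0.23 at 30 min, 0.02 and 0.06 at 60 min, and 0.09 and 0.04 at 90 min. In Hsf1-aa they were 0.37 and 0.18 at 0 min, 0.71 and 0.37 at 15 min, 0.38 and 0.30 at 30 min, 0.18 and 0.02 at 60 min, and 0.05 and -0.07 at 90 min. PYC1 was the 1 gene of the 7 whose Hsf1-aa arrays at 90 min both lay below that strain's 0 min arrays, by a mean log2 change of -0.29 ± 0.08. In WT-aa the same change was 0.08 ± 0.08.

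**Figure D1:**
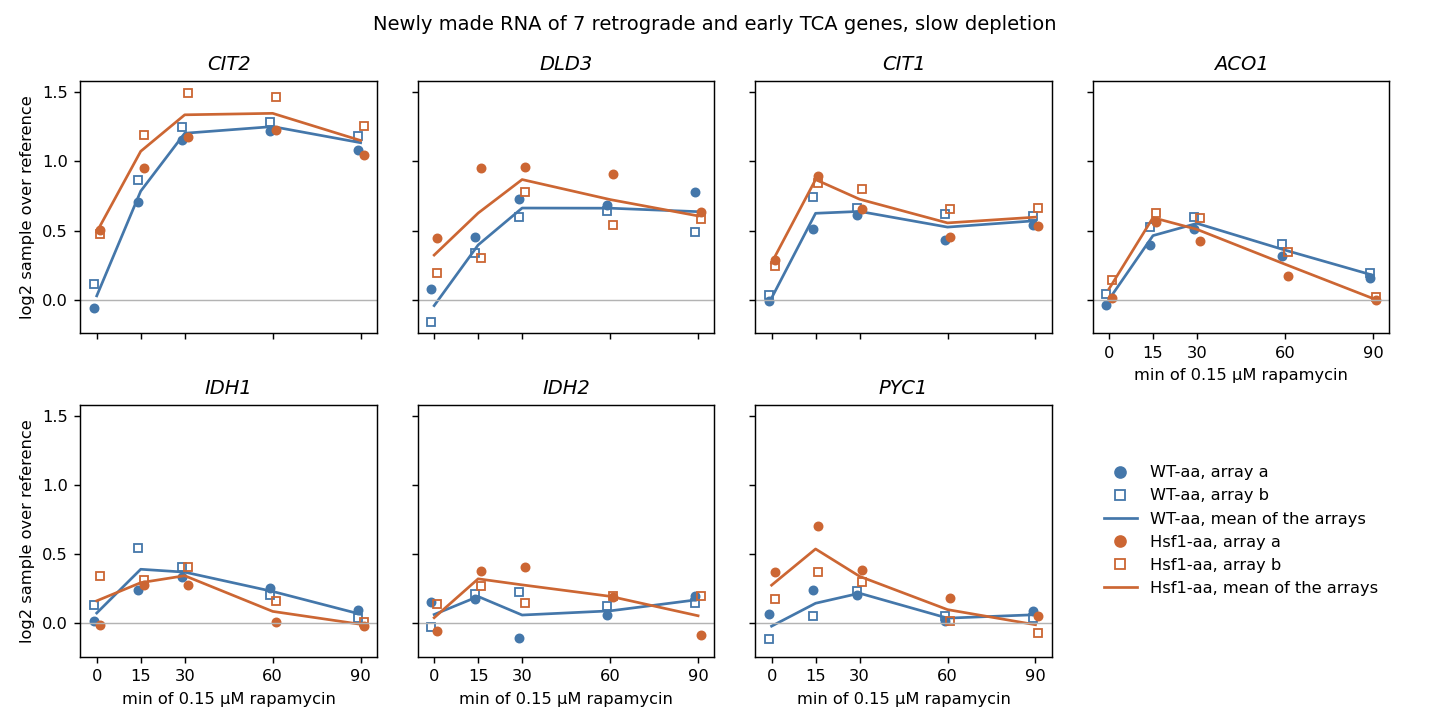
Log2 of sample over reference (vertical axis) for each gene against minutes of 0.15 µM rapamycin, with filled circles for arrays a, open squares for arrays b and lines through the mean of the 2 arrays, WT-aa in blue and Hsf1-aa in orange. CIT2 reached a mean of 1.25 in WT-aa and 1.35 in Hsf1-aa at 60 min, while ACO1 peaked at 30 min in WT-aa and 15 min in Hsf1-aa and was near 0 in Hsf1-aa at 90 min.

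Over time, 6, 6, 5 and 4 of the 7 genes had both WT-aa arrays above both 0 min arrays at 15, 30, 60 and 90 min. The share of all features that did so was 22.8%, 20.6%, 18.9% and 16.1%. In Hsf1-aa the counts were 4, 5, 5 and 3 of 7, against 17.4%, 7.76%, 19.8% and 21.3% of all features. PYC1 alone lay below at 90 min, as did 22.5% of all features. These counts use the arrays taken to be behind the choice of CIT2 and are given as a description.

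For some of the genes part of the gain was still there at 90 min. Of the log2 difference between the 0 min mean and the highest mean, WT-aa still held 90.5% for CIT2, 96.3% for DLD3 and 89.2% for CIT1 at 90 min, and 31.8% for ACO1. In Hsf1-aa the same share was 77.1% for CIT2, 51.9% for DLD3, 54.9% for CIT1 and -13.4% for ACO1, the last being below its 0 min mean. On these arrays the share was greater for CIT1 and DLD3 than for ACO1 in both strains, but no order of the genes is read from it. With control-RNA centring the ACO1 change from 0 to 90 min in WT-aa was -0.035. The gains of the other 3 genes were smaller: the share was 82.6% in WT-aa and 5.07% in Hsf1-aa for IDH2, 34.8% and -109.3% for PYC1, and -2.73% and -93.3% for IDH1. No test was made of these shares. The 0 min levels of CIT2 and its change from 0 to 90 min were taken to be behind its choice, and both enter its share. A high share for CIT2 was thus favoured by its choice, and nothing is read from it.

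The change from 15 to 60 min uses none of the arrays taken to be behind the choice of CIT2 and was tested in each strain. Should values at 15 or 60 min have counted in that choice, the CIT2 tests would not be independent of it. In WT-aa CIT2 rose, from 0.71 and 0.86 to 1.22 and 1.28, and the arrays of the 2 times did not overlap. The share of all features without such overlap was not counted in either strain, so non-overlap of these times is a description only. The log2 change was 0.47 ± 0.08 (1.38-fold; limma adjusted p = 0.0179). CIT2 was the 1 gene of 7 past the threshold of 0.05, while 0.613% of all 6357 features passed in either direction and 0.252% of all features upward. DLD3 changed by 0.27 ± 0.12 (adjusted p = 0.517, unadjusted p = 0.0408), and its arrays at 60 min also lay above those at 15 min. For CIT1, ACO1, IDH1, IDH2 and PYC1 the log2 changes were between -0.16 and -0.10, with adjusted p between 0.619 and 0.913.

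The CIT2 call in WT-aa rests on all 4 arrays behind it. Its adjusted p was 0.106 without the 15 min array a, 0.174 without the 15 min array b, 0.214 without the 60 min array a and 0.121 without the 60 min array b, with log2 changes of 0.41 to 0.52. It was 0.0665 with median centring (log2 change 0.47), 1.00 with centring on the external control RNA (0.49) and 0.320 without the dye term (0.47), so the size stayed near that of the call.

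In Hsf1-aa 4 of the 7 genes passed between 15 and 60 min, 1 upward and 3 downward, where 9.2% of all features passed, 3.89% upward and 5.32% downward. CIT2 rose from 0.96 and 1.19 to 1.23 and 1.47, by a log2 change of 0.27 ± 0.08 (limma adjusted p = 0.0421). ACO1 fell from 0.56 and 0.63 to 0.17 and 0.34, a log2 change of -0.34 ± 0.05 (adjusted p = 0.00245). The arrays of the 2 times did not overlap for either gene.

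CIT1 fell in Hsf1-aa from 0.89 and 0.85 to 0.45 and 0.66, a log2 change of -0.31 ± 0.07 (limma adjusted p = 0.0210). PYC1 fell from 0.71 and 0.37 to 0.18 and 0.02, a log2 change of -0.44 ± 0.08 (adjusted p = 0.00593). For both genes the 60 min arrays lay wholly below those at 15 min, again a description with no share over all features. IDH1 changed by -0.21 ± 0.09 (adjusted p = 0.170), IDH2 by -0.13 ± 0.12 (adjusted p = 0.537) and DLD3 by 0.10 ± 0.12 (adjusted p = 0.620). Between 15 and 60 min the peroxisomal citrate synthase thus went up while the mitochondrial one, aconitase and pyruvate carboxylase went down.

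Single arrays, the scaling and the dye term each decided some of these calls in Hsf1-aa. CIT1 had an adjusted p of 0.131 without the 15 min array a (log2 change -0.23) and of 0.181 without the 60 min array a (-0.25). PYC1 had one of 0.0543 without the 15 min array a (-0.32) and of 0.0510 without the 60 min array b (-0.42). With control-RNA centring the adjusted p was 0.253 for CIT1 (-0.38), 0.0999 for PYC1 (-0.49) and 0.656 for CIT2 (0.20), and without the dye term it was 0.117, 0.0582 and 0.277. The CIT2 call was also lost with median centring (0.25, adjusted p = 0.150) and with the authors' deposited table of log2 ratios (0.31, adjusted p = 0.0534). CIT2 kept its call under 9 of 27 alternatives, and without the 15 min arrays a or b its adjusted p was 0.167 or 0.137, without the 60 min arrays a or b 0.112 or 0.194, with log2 changes of 0.23 to 0.32. It was also lost, at adjusted p between 0.0501 and 0.0605, without either Hsf1-aa array at 90 min or either WT-aa array at 0, 15, 60 or 90 min. ACO1 kept its call under 25 of 27, with adjusted p = 0.228 under control-RNA centring (-0.41) and 0.0549 without the dye term (-0.34).

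**Figure D2:**
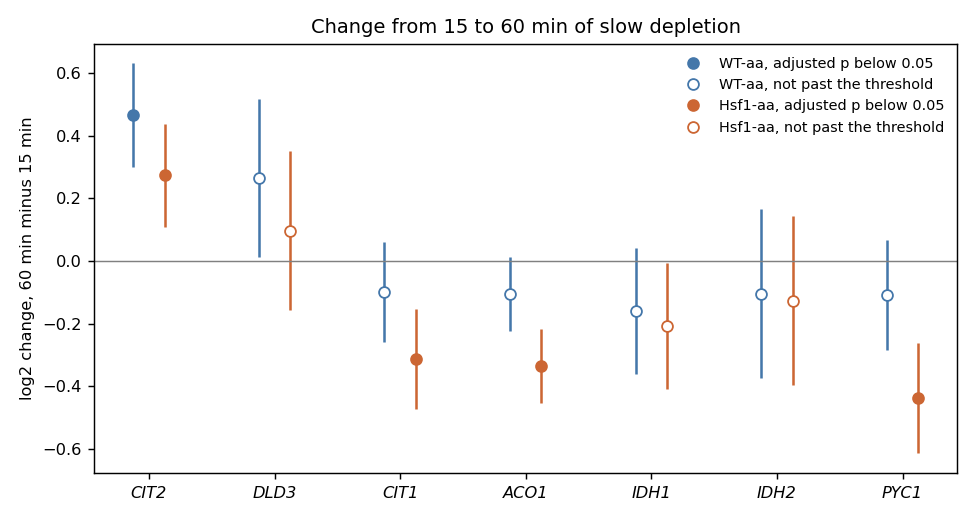
Log2 change from 15 to 60 min (vertical axis) for each gene in WT-aa (blue) and Hsf1-aa (orange), with the 95% interval of the limma fit, and filled points where the adjusted p was below 0.05. CIT2 was higher at 60 min in both strains, and the values of CIT1, ACO1 and PYC1 in Hsf1-aa lay between -0.44 and -0.31.

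Whether the strains differed in this change was tested directly, by the Hsf1-aa change minus the WT-aa change. All 7 log2 differences were below 0, from -0.02 for IDH2 to -0.33 for PYC1, and 0 of 7 passed in limma, against 0.346% of all features. ACO1 differed by -0.23 ± 0.08 (adjusted p = 0.850, unadjusted p = 0.0103) and PYC1 by -0.33 ± 0.11 (adjusted p = 0.955, unadjusted p = 0.0134), the 2 genes with an unadjusted p under 0.05. The 95% interval was -0.43 to 0.04 for CIT2 and -0.44 to 0.01 for CIT1. A fall of CIT1, ACO1 and PYC1 in Hsf1-aa alone is thus not shown. HSP82, by contrast, differed by -1.65 ± 0.21 in this test (adjusted p = 0.00178).

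Before rapamycin, the level of CIT2 was higher in Hsf1-aa than in WT-aa by a log2 difference of 0.46 ± 0.08 (1.38-fold), a value taken to be behind its choice. DLD3 was higher by 0.37 ± 0.12, PYC1 by 0.30 ± 0.08 and CIT1 by 0.25 ± 0.07. For these 4 of 7 genes both Hsf1-aa arrays lay above both WT-aa arrays, as for 10.4% of all features, and they ranked 4, 9, 22 and 40 from the top of 6357. ACO1, IDH1 and IDH2 differed by 0.08 ± 0.05, 0.09 ± 0.09 and -0.02 ± 0.12. At 90 min the differences were 0.02 ± 0.08 for CIT2, -0.03 ± 0.12 for DLD3, 0.03 ± 0.07 for CIT1 and -0.07 ± 0.08 for PYC1. ACO1, IDH1 and IDH2 then differed by -0.17 ± 0.05, -0.07 ± 0.09 and -0.12 ± 0.12. For ACO1 and IDH1 both Hsf1-aa arrays lay below both WT-aa arrays at 90 min, as for 619 of the 6357 features. These values use the arrays taken to be behind the choice of CIT2, so nothing is read from the change between 0 and 90 min.

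At 15, 30 and 60 min the strain difference was tested, and 0 of 7 genes passed in limma at any of these times, while 0.22%, 0.787% and 1.2% of all features did. At 15 min PYC1 differed by 0.39 ± 0.08 (adjusted p = 0.111), CIT2 by 0.29 ± 0.08 (adjusted p = 0.327), CIT1 by 0.24 ± 0.07 (adjusted p = 0.415) and ACO1 by 0.13 ± 0.05 (adjusted p = 0.496). These 4 had an unadjusted p under 0.05, as did 616 of the 6357 features, and 0 of 7 had one at 30 or 60 min. Both Hsf1-aa arrays lay above both WT-aa arrays for 5 of 7 genes at 15 min, against 18.7% of all features, and for 2 of 7 at 30 min, against 9.77%. At 60 min IDH2 lay above, with 17.8% of all features, and IDH1 below, with 20.1%.

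Control-RNA centring moved the median of all features in the strain difference by -0.16 at 30 min and -0.12 at 60 min and turned the sign of CIT2, DLD3, CIT1, IDH2 and PYC1 at both times. Relative to that median CIT2 stood at 0.05 and 0.02, PYC1 at 0.05 and 0.02, and IDH2 at 0.14 and 0.06. DLD3 stood at 0.13 and -0.01 and CIT1 at 0.00 and -0.04.

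The intervals leave room for small differences at the later times. At 60 min the 95% interval of the log2 strain difference was -0.07 to 0.26 for CIT2, -0.19 to 0.32 for DLD3, -0.13 to 0.19 for CIT1, -0.22 to 0.02 for ACO1 and -0.11 to 0.24 for PYC1. At that time HSP82 differed by -1.87 ± 0.15 (limma adjusted p = 6.19e-06). With array quality weights, PYC1 at 15 min had an adjusted p of 0.0300, the 1 call among 999 repeats of the 37 member tests that gave none.

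**Figure D3:**
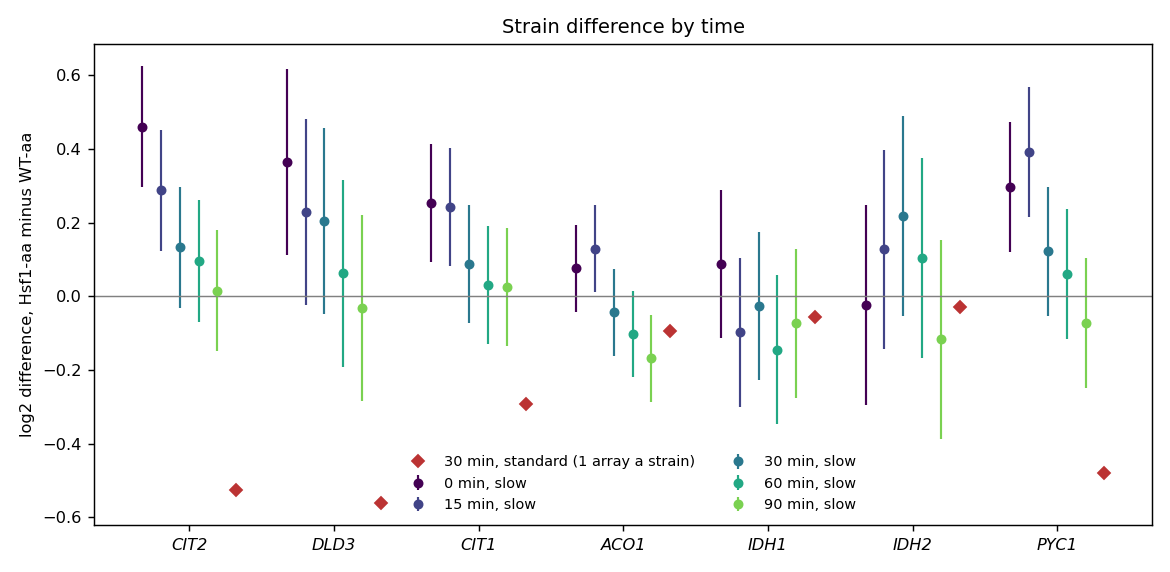
Log2 difference between strains, Hsf1-aa minus WT-aa (vertical axis), for each gene at the 5 times of the slow course, with the 95% interval of the limma fit (points shaded by time), and in the standard depletion (red diamonds, 1 array a strain, no error). CIT2 went from 0.46 at 0 min to 0.02 at 90 min, and the diamonds of CIT2, DLD3 and PYC1 lay between -0.56 and -0.48.

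The standard depletion used more rapamycin and another reference pool, so its levels are not set against those of the slow course, and the strains were compared within it. The log2 level of CIT2 was 2.65 in WT-aa and 2.12 in Hsf1-aa, a difference of -0.53. DLD3 was at 1.83 and 1.27, a difference of -0.56, and CIT1 at 1.12 and 0.83, a difference of -0.29. PYC1 was at 0.33 and -0.15, a difference of -0.48.

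In this pair of arrays these 4 genes were thus lower in the Hsf1-aa library, whereas their slow differences at 30 min were 0.13, 0.21, 0.09 and 0.12. They ranked 50, 44, 124 and 52 from the bottom of 6357 features, whose 5th and 95th percentiles were -0.19 and 0.22. ACO1, IDH1 and IDH2 differed by -0.10, -0.06 and -0.03. HSP82 differed by -3.69. With 1 array a strain there is no test. With median centring CIT1, ACO1 and IDH2 turned, to 0.067, 0.085 and 0.31, and IDH2 was at 0.086 in the authors' deposited table. CIT2, DLD3 and PYC1 kept their sign, but the size of their difference depended on the scaling. The median reference signals of these arrays were unequal, at 297.0 units in WT-aa and 172.6 in Hsf1-aa. How much of the differences comes from the loess curve was not tested. Control-RNA centring lifted the median of all features to 1.12, with 3.53% to 11.0% of the control spots above background on these arrays, so all 7 differences were then above 0. Relative to that median CIT2, DLD3 and PYC1 stood at -0.16, -0.26 and -0.20, smaller in size than the -0.53, -0.56 and -0.48 with loess. CIT1, ACO1, IDH1 and IDH2 stood at 0.02, 0.04, -0.18 and 0.26. For CIT1, ACO1 and IDH2 this equals the median-centred value less the median of all features there (0.048). These values are therefore not a check apart from median centring.

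Across the 10 group means of the slow course, DLD3 was the feature most like CIT2 of 6356, with a Pearson r of 0.98. The next named genes were FAR1 (an inhibitor of the cell-cycle kinase in the mating response) at 0.93, MIF2 (a centromere protein) and BAP3 (an amino acid permease) at 0.90, and ICY1 at 0.90. SHM2 (cytosolic serine hydroxymethyltransferase), SDC25 (a Ras exchange factor) and MTF2 (a mitochondrial protein) followed at 0.88, 0.88 and 0.87. Of the other genes described here CIT1 ranked 22 (r = 0.82), ACO1 441 (r = 0.52), IDH2 762 (r = 0.41), IDH1 1816 (r = 0.20) and PYC1 1867 (r = 0.19). ACO1 was most like IDH1 among the 7, at r = 0.89. The points share arrays, dyes and the pool, and the values are descriptions.

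Other genes of the pathway were read in 7 lists, of which 47 of 49 genes were measured. From 15 to 60 min 2 of the 47 passed in WT-aa, both lower, where 0.613% of all features passed. In Hsf1-aa 6 of 47 passed, all lower, where 9.2% of all features passed and 5.32% were lower. Their median log2 change was -0.08 in WT-aa and -0.10 in Hsf1-aa, where the median of all features was 0.00 in both. The difference between strains in this change passed for 0 of 47 in limma, of which 1 had an unadjusted p under 0.05.

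Among the 8 regulators, 0 passed in WT-aa and 1 in Hsf1-aa between 15 and 60 min, beside 9.2% of all features in the latter. That was BMH1, a 14-3-3 protein that holds phosphorylated Mks1, with a log2 change of -0.34 ± 0.06 (limma adjusted p = 0.00602). Without the Hsf1-aa 60 min array a its adjusted p was 0.0672. Its paralog BMH2 changed by -0.25 ± 0.07 (adjusted p = 0.0512). RTG1 changed by 0.61 ± 0.23 in Hsf1-aa (adjusted p = 0.109) and by 0.14 ± 0.23 in WT-aa. LST8, a subunit of the TOR complexes, was lower in Hsf1-aa than in WT-aa at 90 min, at -0.61 and -0.66 against 0.28 and -0.03 on the log2 scale. The difference was -0.77 ± 0.17 (adjusted p = 0.0463; 1 of 47 listed genes and 1.23% of all features passed), and it passed under 12 of 27 alternatives. It was lost without either array of WT-aa at 0, 15, 60 or 90 min, or of Hsf1-aa at 60 or 90 min, with adjusted p between 0.0701 and 0.668.

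Of 11 later TCA cycle genes, 1 fell in WT-aa and 3 fell in Hsf1-aa between 15 and 60 min, where 5.32% of all features were lower in Hsf1-aa. SDH1, the flavoprotein subunit of succinate dehydrogenase, went from 0.24 and 0.23 to -0.23 and -0.05 in WT-aa, a log2 change of -0.38 ± 0.06 (limma adjusted p = 0.0179). In Hsf1-aa it went from 0.42 and 0.50 to -0.16 and -0.10, a log2 change of -0.59 ± 0.06 (adjusted p = 7.24e-05). That call held under 27 of 27 alternatives. LSC2, a subunit of succinyl-CoA ligase, changed by -0.53 ± 0.11 (adjusted p = 0.0106) and LPD1, the lipoamide dehydrogenase, by -0.23 ± 0.06 (adjusted p = 0.0303). LSC2 had an adjusted p of 0.0601 to 0.0934 without the 60 min array a or b or the 15 min array b. LPD1 had one of 0.0633 to 0.202 without any 1 of the 4 arrays. For SDH1 in WT-aa it was 0.0891 to 0.211 without any 1 of the 4 arrays.

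Of the 7 measured relatives of the members, IDP2, a cytosolic NADP-dependent isocitrate dehydrogenase, fell in WT-aa by 0.30 ± 0.05 on the log2 scale (limma adjusted p = 0.0253) and in Hsf1-aa by 0.34 ± 0.05 (adjusted p = 0.00202). CIT3 changed by 0.09 ± 0.06 and 0.07 ± 0.06, and PYC2 by -0.18 ± 0.09 and -0.19 ± 0.09, none past the threshold. The IDP2 call in WT-aa was lost without any 1 of the 4 arrays at 15 and 60 min, with adjusted p between 0.141 and 0.241.

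Glutamate and glutamine enzymes draw on the alpha-ketoglutarate that the members make. GLN1, glutamine synthetase, rose from 0 to 90 min in both strains, and it was the 1 gene of 47 past the threshold in each, against 0.991% of all features in WT-aa and 2.72% in Hsf1-aa. In WT-aa its log2 levels were 0.02 and -0.04 at 0 min and 0.62 and 0.64 at 90 min, a change of 0.64 ± 0.13 (limma adjusted p = 0.0421). In Hsf1-aa they were -0.06 and 0.05 at 0 min and 0.47 and 0.69 at 90 min, a change of 0.58 ± 0.13 (adjusted p = 0.0339). Each call held under 15 of 27 alternatives, and both were lost without either array of WT-aa at 0, 15 or 90 min or of Hsf1-aa at 0 min. The WT-aa call was also lost without either Hsf1-aa array at 60 min, and the Hsf1-aa call without either Hsf1-aa array at 90 min. The adjusted p was then 0.0663 to 0.451 in WT-aa and 0.0515 to 0.359 in Hsf1-aa.

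GDH1, the main glutamate dehydrogenase that fixes ammonium, was lower in Hsf1-aa at 30 min, at -0.03 and 0.19 against 0.57 and 0.49 in WT-aa on the log2 scale. The difference was -0.45 ± 0.08 (limma adjusted p = 0.0196), the 1 strain difference past the threshold among the 47 listed genes at 15, 30 or 60 min, and it was lost without array a of Hsf1-aa or of WT-aa at 30 min (adjusted p = 0.313 and 0.321). From 15 to 60 min GDH1 changed by -0.40 ± 0.08 in both strains (adjusted p = 0.0112 in Hsf1-aa and 0.0575 in WT-aa). The call was lost without the Hsf1-aa 60 min array a or 15 min array b (adjusted p = 0.126 and 0.132).

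None of the 9 genes of the glyoxylate cycle and peroxisomal oxidation, the 4 HAP complex genes or the 3 measured other biotin enzymes passed in any of the 9 comparisons tested in limma, while 17 of these 144 tests had an unadjusted p under 0.05. MDH2, the cytosolic malate dehydrogenase, stood highest of the 9, with a change from 15 to 60 min of 0.34 ± 0.17 in Hsf1-aa (adjusted p = 0.226) and 0.10 ± 0.17 in WT-aa (adjusted p = 0.956). HAP4 changed by -0.07 ± 0.06 in Hsf1-aa and by -0.11 ± 0.06 in WT-aa.

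**Figure D4:**
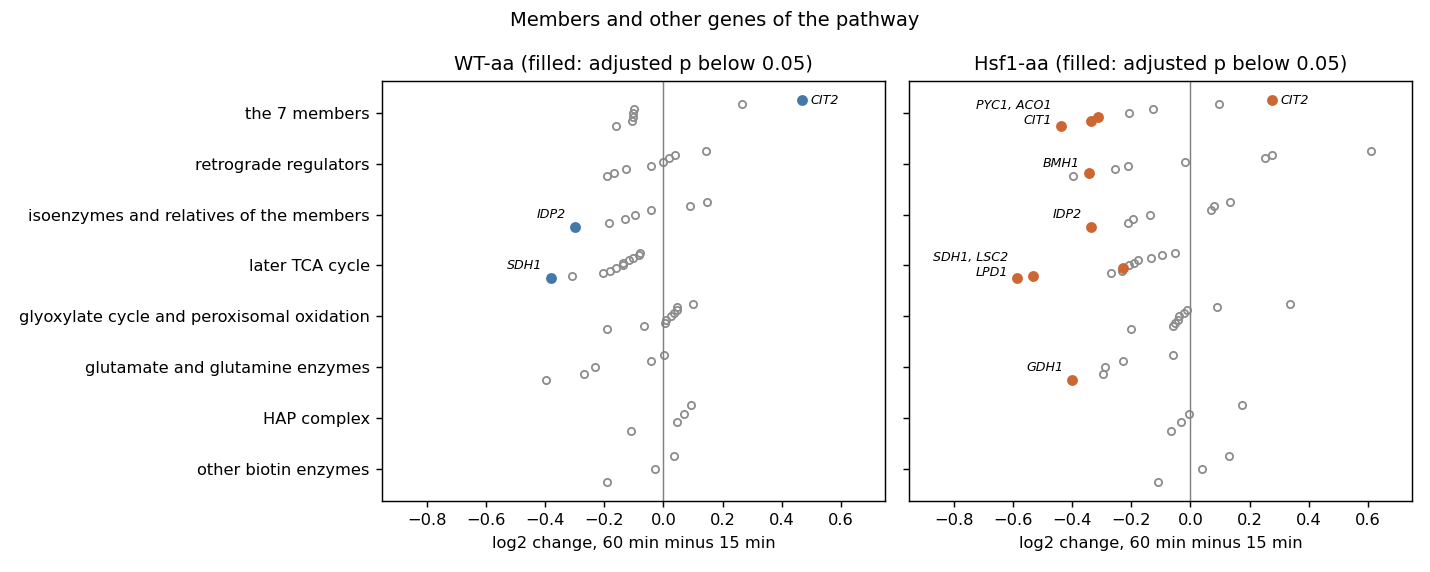
Log2 change from 15 to 60 min (horizontal axis) of the 7 members and of 47 other genes of the pathway, 1 point a gene, in WT-aa (left) and Hsf1-aa (right), filled and named (left to right) where the limma adjusted p was below 0.05. CIT2 was the 1 filled point to the right of 0 in both strains, and SDH1 lay at -0.38 in WT-aa and -0.59 in Hsf1-aa.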

How the data were processed

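The 22 arrays carry 2 dyes each. Per the file headers, the deposited scanner output gives each spot's linear intensity in each dye beside its local background. A further deposited table holds the authors' log2 ratio of Cy5 to Cy3. Its column medians lay between -0.01 and 0.02 and it correlated at r = 0.602 to 0.971 with the ratios below, and it served as an alternative. For that table's normalization, the scanner software and the genome build: not given in the sources used here.

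Intensities were background-corrected in limma 3.58.1 (R 4.3.3; normexp, offset 50) and normalised by loess within each array, control spots having weight 0, which sets the middle of each array to 0. Per the labels, the sample was in Cy3 on arrays a and in Cy5 on arrays b and on the standard arrays, and ratios were turned to sample over reference. A feature was tested if its sample signal exceeded background by 2 background SD on at least 2 slow arrays (6357 features, 5297 of them named). Out-of-date symbols (54) were updated through RefSeq synonyms.

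One limma model (lmFit and eBayes) took in the 20 slow arrays, with 10 groups and a dye term, and left 9 residual degrees of freedom. Tests were two-sided with Benjamini-Hochberg adjustment over all features and a threshold of 0.05. The series describes independent cultures for the replicate arrays, the first with the sample in Cy5, whereas the labels put it in Cy3 on arrays a, and arrays a and b share running numbers in their titles. Letter and dye are the same factor, so the dye term is also a replicate block. Arrays of 1 letter deviated from their group means together (r between groups -0.40 to 0.82, median 0.54), and dye and culture cannot be told apart there. Were a and b a dye swap of the same culture, p-values would cover technical spread only. The number of arrays limits the precision.

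The members and lists were chosen with earlier results of these data known. Named were all 7 members, every listed gene past the threshold and otherwise the highest and lowest of a list or genes chosen after their values were seen (BMH2, CIT3, PYC2, HAP4), the 8 named genes most like CIT2, and HSF1 and HSP82 as checks. Of the 49 listed genes, 47 were analysed here. The fit was tested on simulated data. Alternatives were no background correction, median centring, centring on external control RNA, the authors' ratios, no filter, array quality weights, no dye term and leaving out each array. For control-RNA centring, the level at which the curve was held beyond the brightest control spots was chosen after seeing the data.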

Additional observations from a re-analysis of the deposited data

Results flagged for a closer look

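In 2 genes every array of one strain moved one way and every array of the other the opposite way between 0 and 90 min, comparing arrays of the same letter. ACO1 changed by 0.20 and 0.15 in WT-aa and by -0.02 and -0.12 in Hsf1-aa on the log2 scale, a difference of -0.24. PYC1 changed by 0.02 and 0.15 in WT-aa and by -0.32 and -0.25 in Hsf1-aa, a difference of -0.37. With control-RNA centring, under which the median of all features was -0.11 in WT-aa and -0.09 in Hsf1-aa, the mean changes were below 0 in both strains. They were then -0.035 and -0.22 for ACO1 and -0.098 and -0.42 for PYC1 (WT-aa and Hsf1-aa). These differences between strains were not tested, since they use the arrays taken to be behind the choice of CIT2. How many of all features show the same pattern was not counted, so it is not read as a trait of these 2 genes.

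With loess scaling, the strain difference at 30 min had opposite signs in the depletions for 4 genes. For CIT2 it was -0.53 in the standard arrays and 0.02 and 0.25 in slow arrays a and b, a gap of -0.66. For DLD3 it was -0.56 against 0.23 and 0.18, a gap of -0.77. For CIT1 it was -0.29 against 0.04 and 0.14, a gap of -0.38, and for PYC1 -0.48 against 0.18 and 0.06, a gap of -0.60. The gaps were not tested, with 1 standard array a strain. The share of all features with such opposite signs was not counted, so the signs alone do not set these 4 genes apart. Control-RNA centring lifted the median standard difference of all features to 1.12, and relative to it CIT2, DLD3 and PYC1 stood at -0.16, -0.26 and -0.20 and CIT1 at 0.02. With median centring the standard difference of CIT1 was 0.067. In the slow course control-RNA centring turned the 30 min differences of CIT2, DLD3, CIT1 and PYC1 to -0.11, -0.04, -0.16 and -0.11. The median of all features was then -0.16, so the signs and gaps depend on the scaling in both depletions.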

How the results depend on the processing

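The 5 member calls, all in the change from 15 to 60 min, kept their direction under all 27 alternatives. Leaving out an array of another group, or the dye term, leaves the size of such a change as it was. In those alternatives the direction could not turn, and only the error and the adjusted p could move. The CIT2 call held under 20 of them in WT-aa and 9 in Hsf1-aa, and in Hsf1-aa CIT1 held under 23, ACO1 under 25 and PYC1 under 23. Of 37 member tests with no call, 1 of 999 repeats gave one, and 26 had another sign without a call. Where a value moved, the cause was not tested, except that leaving out an array leaves fewer arrays. The loess scaling, the dim control spots (45.3% to 98.9% of them above background on the slow arrays) and array quality weights of 0.442 to 1.62 limit the precision.

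Without the replicate block (no dye term), the number of features past the threshold in the strain difference went from 14 to 4 at 15 min, from 50 to 27 at 30 min and from 76 to 47 at 60 min. From 15 to 60 min it went from 39 to 0 in WT-aa (members 1 to 0, listed genes 2 to 0), from 585 to 215 in Hsf1-aa (members 4 to 0) and from 22 to 13 for the difference between strains. From 0 to 90 min it went from 63 to 36 in WT-aa and from 173 to 88 in Hsf1-aa. Listed genes went from 1 to 0 in both, and in the strain difference at 30 and 90 min.

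With control-RNA centring the counts were 4 for the strain difference at 15 min, 47 at 90 min (78 before), 0 and 61 for 15 to 60 min in WT-aa and Hsf1-aa, 14 for the difference between strains, and 21 and 88 for 0 to 90 min. Members past the threshold were then 0 in both strains from 15 to 60 min. Listed genes were 0 in WT-aa and 1 in Hsf1-aa from 15 to 60 min, 0 from 0 to 90 min in WT-aa, and 0 in the strain difference at 30 and 90 min. With median centring the counts were 6 for the strain difference at 15 min, 8 and 356 for 15 to 60 min in WT-aa (members 0, listed genes 0) and Hsf1-aa, and 0 listed genes in the strain difference at 30 and 90 min. With array quality weights they were 22 and 19 for the strain difference at 15 and 30 min, 84 and 1011 for 15 to 60 min, and 168 and 323 for 0 to 90 min. Members were then 1 at 15 min, and listed genes 0 at 30 min, 1 at 60 min and 3 from 0 to 90 min in each strain. With the authors' ratios 281 features passed from 0 to 90 min in Hsf1-aa, and listed genes were 1 for the strain difference at 15 min, 12 from 15 to 60 min in Hsf1-aa, and 2 and 3 from 0 to 90 min.

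Leaving out each array gave 4 to 16 features for the strain difference at 15 min, 32 to 939 at 30 min and 43 to 143 at 60 min, with listed genes 0 to 12 at 30 min, 0 to 1 at 60 min and 0 to 1 at 90 min. From 15 to 60 min it gave 1 to 45 in WT-aa (members 0 to 1, listed genes 0 to 3), 155 to 911 in Hsf1-aa (members 1 to 4, listed genes 2 to 10) and 11 to 26 for the difference between strains. From 0 to 90 min it gave 33 to 75 in WT-aa (listed genes 0 to 1) and 95 to 328 in Hsf1-aa (listed genes 0 to 3).

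The 126 member values, recomputed under the settings that kept all arrays, gave 36 changes of sign, 24 of them under control-RNA centring. Of the slow values that stood clear of their error, ACO1 from 0 to 90 min in WT-aa turned (-0.035 with control-RNA centring). The standard depletion has no error of its own. There CIT2 (0.95), DLD3 (0.86), CIT1 (1.14), ACO1 (1.15) and PYC1 (0.92) turned with control-RNA centring. CIT1 (0.067) and ACO1 (0.085) also turned there with median centring. The smaller values that turned with control-RNA centring included IDH1 (0.94) and IDH2 (1.38) in the standard depletion, where all features had a median of 1.12, and PYC1 (-0.098) and IDH2 (-0.083) from 0 to 90 min in WT-aa.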
